A study of Homo sapiens with 72 samples.

Results

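The collagen genes were taken as every gene symbol in the mRNA count tables made of COL, a number, A and a second number. This gave 44 of the 26485 gene symbols: 11 fibrillar chains, 10 FACIT chains (fibril-associated collagens with interrupted triple helices), 6 chains of the type IV network, 5 of type VI, 4 transmembrane chains, 3 of the hexagonal networks (types VIII and X), 2 multiplexins, 2 other chains and the type VII chain. The levels are given as CPM, that is counts of a gene per 1e6 reads assigned to genes, with TMM composition factors over all 36 mRNA libraries.

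The study asked what the RNA uridyl transferases TUT4 and TUT7 do in cancer cells by disabling both genes, with Cas9 nickase cuts in exon 12 of TUT4 and exon 14 of TUT7. Wild-type IGROV1 (an ovarian cancer line that makes the RNA-binding protein LIN28A itself), wild-type DU145 (a prostate cancer line that lacks LIN28A) and DU145 carrying a lentiviral LIN28A cDNA under the CMV promoter with puromycin selection (LIN28A OE DU145) were each set against 2 clones of double mutants, mutant 1 and mutant 2. This gave 9 groups of 4 mRNA libraries and the same 9 groups of 4 small RNA libraries. In the labels the LIN28A OE DU145 mutants carry the clone numbers of the DU145 mutants, so that each mutant genotype in the DU145 background stands on 1 clone with and without LIN28A. The 4 libraries of a group carry consecutive passage numbers, and whether they were grown apart is not stated, so that p-values measure only the spread between passages. Wild-type DU145 was at far higher passage numbers than its mutants (8 to 12) and than every LIN28A OE DU145 group (1 to 4), and the IGROV1 mutants were at 2 to 6 against 6 to 9 in wild type. Passage can therefore not be told apart from genotype in DU145 or IGROV1. In IGROV1 only mutant 2 shared a passage number (6) with wild type. Nor can passage be told apart from LIN28A in the comparisons with LIN28A OE DU145. The labels name no empty-vector group, so that transduction and puromycin selection cannot be told apart from LIN28A there either.

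Collagens are triple helices of 3 alpha chains, each chain the product of its own gene. Fibrillar chains build the fibrils of connective tissue, type IV chains form the sheet of basement membranes, type VI chains form beaded filaments at cell surfaces, and FACIT chains sit on the surface of fibrils. Carcinoma cells mostly make basement membrane and cell-surface collagens, and the miR-29 family is a well-known repressor of many collagen mRNAs.

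Reads assigned to genes, in 1e6 reads, numbered 7.2 to 25.1 per mRNA library (median 13.4), and miRNA reads 5.71 to 14.1 per small RNA library. TUT7 mRNA fell in all 6 mutant groups, and TUT4 mRNA fell in 4 of them but not detectably in mutant 2 of DU145 (log2 fold change -0.57, edgeR quasi-likelihood adjusted p = 0.031) or of LIN28A OE DU145 (-0.27, adjusted p = 0.32). A frame-shifting deletion need not lower an mRNA, so that these levels do not check the edit itself. LIN28A was at 173 to 371 CPM in the IGROV1 libraries, at 0 to 0.45 in DU145 and at 61.4 to 401 in LIN28A OE DU145, where the group means were 69.0 in wild type, 366 in mutant 1 and 233 in mutant 2. Of the 6 fibroblast markers, DCN, LUM and FAP were at 0 to 0.167 CPM in every library and THY1 at 0 to 1.00, while PDGFRA stood at 4.03 to 10.8 in IGROV1 and PDGFRB differed between the groups. The prostate lineage marker KLK3 was at 0 in wild-type DU145, while the Mullerian marker PAX8 stood at 445 to 997 CPM in IGROV1.

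The seed of a miRNA (bases 2 to 8, in capitals) is the stretch that pairs with an mRNA. The miR-29 and let-7 families are shown because the first is known for collagen mRNAs and the second is the family that LIN28A and TUT4/7 act on (RefSeq, GRCh38.p14). miR-29a-3p lies at chr7:130876748-130876769 and miR-29c-3p at chr1:207801865-207801886, both on the minus strand, and let-7g-5p at chr3:52268336-52268357, also on the minus strand.
hsa-miR-29a-3p: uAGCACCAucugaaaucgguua
hsa-miR-29b-3p: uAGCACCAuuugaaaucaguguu
hsa-miR-29c-3p: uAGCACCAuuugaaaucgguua
hsa-let-7g-5p: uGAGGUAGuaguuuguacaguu
hsa-let-7i-5p: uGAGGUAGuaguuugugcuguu

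The letters TGGTGCT, which pair with the miR-29 seed, were read on the transcript strand in the 3′ UTRs of the canonical GENCODE v44 transcripts. They stood in 28 of 44 collagen genes (63.6%) and in 2682 of 19206 genes (14.0%), at 5.93 and 0.952 sites per 10 kb, with median 3′ UTR lengths of 1122 and 1065 bases. The let-7 letters CTACCTC stood in 10 of 44 collagen genes (22.7%) and in 9.7% of all genes. Stretches of 30 bases around the site (in capitals) are given for some of the genes whose levels are described later. These are COL5A1, with 4 sites the most of any collagen gene, COL5A3 with 3, COL4A1 and COL4A2 with 1 each. COL4A4, with 3 sites, and COL6A2, with 1, are also described later but not printed. Both of these genes rose in some mutant groups and fell in others. All printed sites lie in the last exon's 3′ UTR in GRCh38.
COL5A1 site 1, chr9:134843322-134843351, plus strand: ggtgataactcaatgaaaatTGGTGCTtat
COL5A1 site 2, chr9:134843362-134843391, plus strand: tctctcttgtggctctcttgTGGTGCTatc
COL5A1 site 3, chr9:134843696-134843725, plus strand: atttggttcctgaatgtttgTGGTGCTaat
COL5A1 site 4, chr9:134844077-134844106, plus strand: ggggtgagcctgcggggctcTGGTGCTgtc
COL5A3 site 1, chr19:9960350-9960379, minus strand: gccccagaatggggtgcattTGGTGCTgag
COL5A3 site 2, chr19:9960017-9960046, minus strand: tcgctgcccttcacacctttTGGTGCTacc
COL5A3 site 3, chr19:9959739-9959768, minus strand: ggggtgaatcaggatcctaaTGGTGCTgcc
COL4A1 site, chr13:110150324-110150353, minus strand: actcagctaatgtcacaacaTGGTGCTact
COL4A2 site, chr13:110512199-110512228, plus strand: cgtgccaggaagggccatttTGGTGCTtat
A match of these letters is a description of the sequence, and no binding was measured.

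The type IV genes lie head to head in 3 pairs. The start sites of COL4A1 and COL4A2 on chromosome 13 are 127 bases apart, those of COL4A4 and COL4A3 on chromosome 2 are 419 bases apart and those of COL4A6 and COL4A5 on the X chromosome 380 bases apart. The 300-base windows at the COL4A2 and COL4A5 starts (250 bases before to 50 after; RefSeq, GRCh38.p14, plus strand) are printed because genes of these pairs moved together in the mutants, and the first of them also holds the COL4A1 start site, at position 110307157. Capitals mark GC boxes (GGGCGG) and CCAAT boxes (CCAAT) on either strand.
COL4A2 start, chr13:110307034-110307333: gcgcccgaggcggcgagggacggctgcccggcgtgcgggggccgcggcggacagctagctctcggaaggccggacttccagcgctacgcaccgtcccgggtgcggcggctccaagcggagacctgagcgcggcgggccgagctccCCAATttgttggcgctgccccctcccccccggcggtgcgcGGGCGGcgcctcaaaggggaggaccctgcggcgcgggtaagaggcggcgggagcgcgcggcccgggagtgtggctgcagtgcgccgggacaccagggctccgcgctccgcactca
COL4A5 start, chrX:108439588-108439887: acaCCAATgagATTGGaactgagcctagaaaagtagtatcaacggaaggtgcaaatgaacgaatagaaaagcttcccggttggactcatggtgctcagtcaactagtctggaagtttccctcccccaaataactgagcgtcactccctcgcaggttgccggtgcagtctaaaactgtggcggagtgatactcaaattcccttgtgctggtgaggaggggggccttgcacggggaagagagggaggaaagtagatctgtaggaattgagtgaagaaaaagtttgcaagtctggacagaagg
Among the 44 windows of the 32 collagen genes matched, 54.5% held GGGCGG, 31.8% CCAAT and 18.2% TATAAA, against 45.0%, 34.6% and 11.5% of all 35116 windows. The motifs were searched on both strands and none overlaps another.

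The wild-type lines differed more in the amount of collagen mRNA than in the number of collagen genes in use. The 44 genes together took 5822 ± 472 CPM in wild-type IGROV1, 779.9 ± 24.9 in wild-type DU145 and 1060 ± 140 in wild-type LIN28A OE DU145 (mean ± SD, n = 4). In each of the 9 groups 9 to 13 collagen genes stood at a mean of 10 CPM or more, and COL22A1 had 0 reads in all 36 libraries. The 3 highest genes took 92.9% of the collagen sum in wild-type IGROV1 and 56.0% in wild-type DU145.

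**Figure D1:**
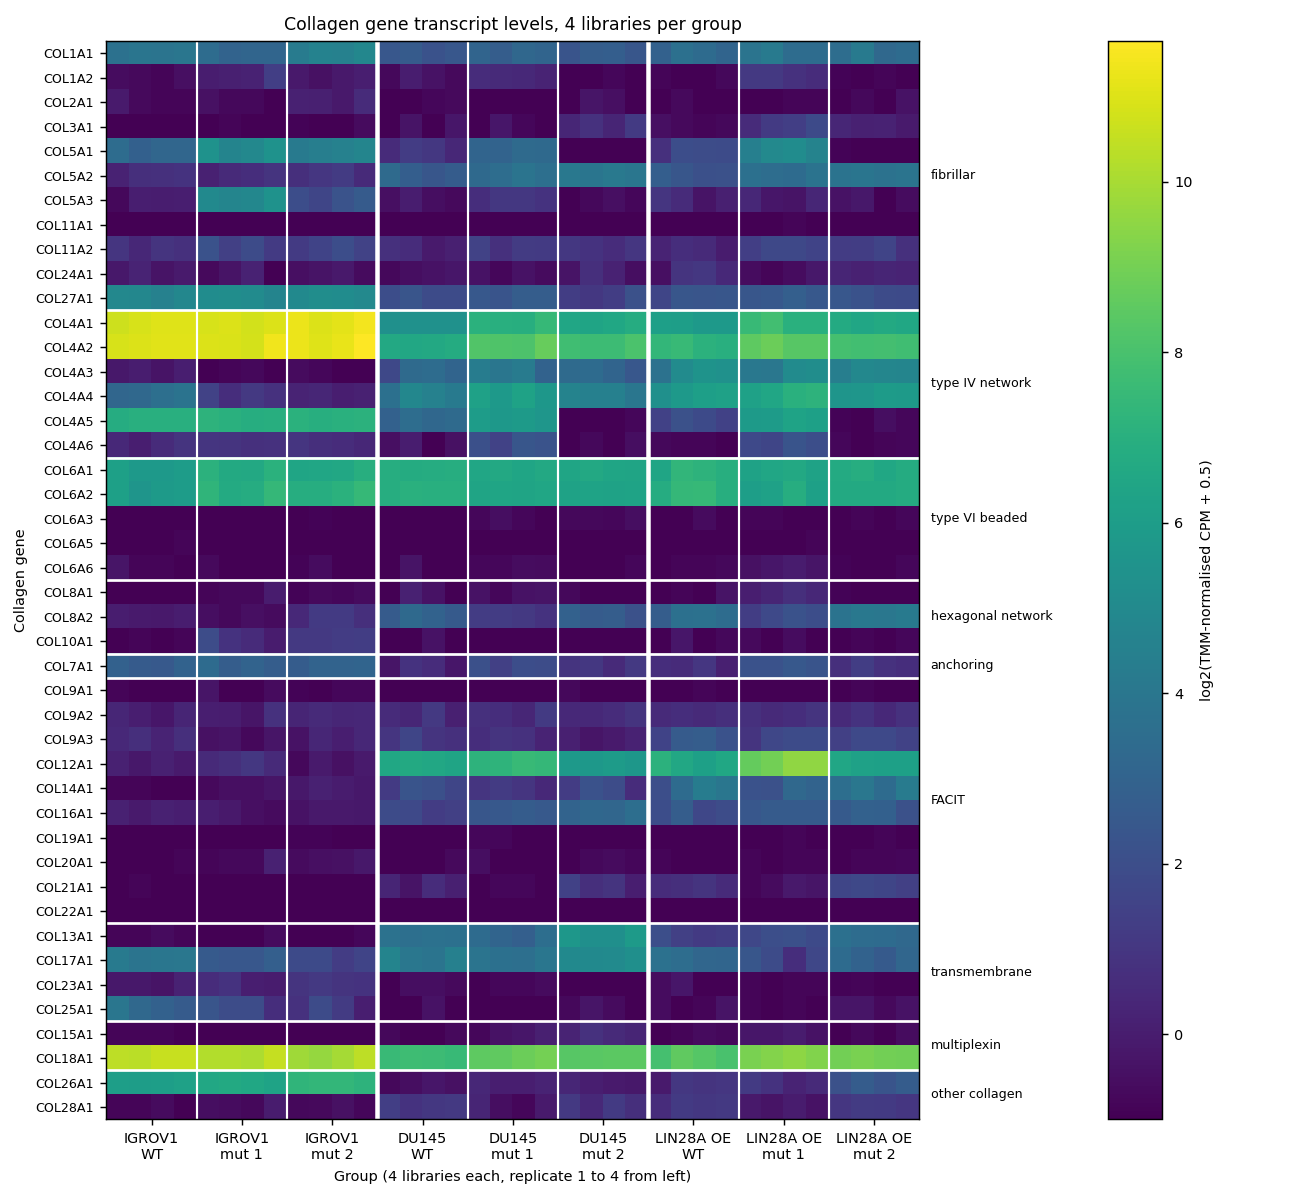
Level of the 44 collagen genes (rows, by class) in the 36 mRNA libraries (columns, by group), as log2(TMM CPM + 0.5). COL4A1, COL4A2 and COL18A1 are the brightest rows in IGROV1, and most FACIT and fibrillar rows stay dark there.

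Levels per kilobase of transcript (RPKM, from the length of the canonical transcript) give the order between genes. In wild-type IGROV1 the basement membrane chains COL4A2 (319 RPKM) and COL4A1 (295) came first, followed by COL18A1 (263), the source of endostatin, and far behind them COL26A1 (23.2), COL4A5 (18.8) and the type VI chain COL6A2 (17.4). In wild-type DU145 the order was COL18A1 (36.5 RPKM), COL6A2 (36.4), COL6A1 (27.1), COL4A2 (15.5), COL12A1 (8.04) and COL4A1 (6.30). COL18A1 and COL6A2 did not differ there by more than the spread between libraries. The same 6 genes led in wild-type LIN28A OE DU145, from COL18A1 (55.2 RPKM) to COL12A1 (8.57).

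Between the wild-type lines 11 of 34 collagen genes tested were higher in IGROV1 (28.7% of all genes were) and 12 were lower (31.3% of all genes). COL4A1 stood at 1627, 1905, 2078 and 2102 CPM in wild-type IGROV1 and at 39.8, 42.4, 41.7 and 41.1 in wild-type DU145, a log2 difference of 5.54 ± 0.17 (SE, adjusted p = 3.88e-24). COL26A1, a chain known mainly from the testis and ovary, stood at 68.7, 65.8, 68.1 and 74.3 CPM against 0.11, 0.20, 0.36 and 0.24 (8.15 ± 0.29, adjusted p = 3.90e-22). The FACIT chain COL12A1 went the other way, with 0.61, 0.37, 0.64 and 0.45 CPM in IGROV1 and 93.3, 104, 96.7 and 83.5 in DU145 (-7.50 ± 0.27, adjusted p = 2.20e-22). For these 3 genes the groups lay far apart, and 4 of 6 FACIT genes tested were lower in IGROV1 and 0 higher.

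The comparison of the mutants with wild type shows which collagen genes differed in each double-mutant clone. The labels name no cloned wild-type group, so that cloning cannot be told apart from the loss of TUT4 and TUT7. Of 24 collagen genes tested in IGROV1, 7 rose and 4 fell in mutant 1 (12.8% and 15% of all genes did) and 9 rose and 3 fell in mutant 2 (13.2% and 14.5%). Of 30 tested in DU145, 14 rose and 4 fell in mutant 1 (12.9% and 13.1%) and 7 rose and 6 fell in mutant 2 (10.9% and 13%). Among the LIN28A OE DU145 clones 13 rose and 7 fell in mutant 1 (13% and 15.2%) and 8 rose and 4 fell in mutant 2 (11.4% and 12.5%). The threshold was an adjusted p below 0.01. The median log2 fold change of the collagen genes tested was 0.17 and 0.30 in the IGROV1 mutants, 0.81 and 0.03 in the DU145 mutants and 0.46 and 0.12 in the LIN28A OE DU145 mutants, while that of all genes lay between -0.02 and 0.01. The genes not tested were low, with group means of at most 0.934 CPM for the 20 left out in IGROV1 and 0.886 for the 14 left out in the DU145-derived lines. In bulk samples fewer cells of a type and less RNA per cell cannot be told apart.

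The summed level of the 6 fibroblast markers moved beside these counts. It was 6.09 to 7.23 CPM in wild-type IGROV1, 9.91 to 14.5 in mutant 1 and 9.29 to 11.3 in mutant 2. In DU145 it was 0.101 to 0.593 CPM in wild type, 1.09 to 1.86 in mutant 1 and 0.392 to 0.922 in mutant 2. With LIN28A it was 0.293 to 0.507 CPM in wild type, 2.80 to 3.18 in mutant 1 and 0.798 to 1.16 in mutant 2. Every mutant group but mutant 2 of DU145 lay wholly above its wild type. PDGFRB, a receptor of mesenchymal cells, stood at 0.445 to 1.13 CPM in wild-type IGROV1, 2.53 to 5.42 in mutant 1 and 1.52 to 5.12 in mutant 2. In LIN28A OE DU145 PDGFRB stood at 0.176 to 0.395 CPM in wild type, 2.67 to 3.08 in mutant 1 and 0.798 to 1.07 in mutant 2. In DU145 it stood at 0.101 to 0.435, 0.998 to 1.72 and 0.294 to 0.738. THY1 did not rise in IGROV1, with 0.224 to 1.00 CPM in wild type, 0.227 to 0.465 in mutant 1 and 0.286 to 0.527 in mutant 2. PDGFRA overlapped there, with 4.475 to 5.88, 4.03 to 10.8 and 4.14 to 9.08 CPM. The sums were higher in the groups where COL5A1 rose, in IGROV1 where COL6A1 and COL6A2 rose, and also in mutant 2 of LIN28A OE DU145, where COL5A1 was near absent. Their part in the collagen results was not tested.

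The summed level moved with the most abundant genes. In DU145 the collagen sum was 1443 ± 155.5 CPM in mutant 1 and 1049 ± 48.0 in mutant 2, both above wild type, and in LIN28A OE DU145 it was 2236 ± 253.4 in mutant 1 and 1303 ± 42.9 in mutant 2 (n = 4 each). In IGROV1 the sums of mutant 1 (5898 ± 688.1) and mutant 2 (6574 ± 1032) overlapped those of wild type.

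Among the type IV chains, COL4A1 and COL4A2 rose in both clones of DU145 and of LIN28A OE DU145 and were not called in IGROV1. These genes encode the chains of the network found in nearly all basement membranes. Against the DU145 wild-type values already given, COL4A1 stood at 133, 124, 122 and 181 CPM in mutant 1 (log2 fold change 1.79 ± 0.16, adjusted p = 1.08e-08) and at 88.0, 84.4, 93.8 and 113 in mutant 2 (1.19 ± 0.16, adjusted p = 2.67e-06). Every mutant library lay above every wild-type library. COL4A2 stood at 97.6, 94.5, 97.9 and 111 CPM in wild type, at 294.5, 284, 278.5 and 415.5 in mutant 1 (1.69 ± 0.14, adjusted p = 5.57e-09) and at 221, 206, 206 and 271 in mutant 2 (1.16 ± 0.14, adjusted p = 8.88e-07).

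With LIN28A the rise was of the same direction. COL4A1 stood at 71.1, 68.9, 55.2 and 55.6 CPM in wild-type LIN28A OE DU145, at 182, 223, 128 and 132 in mutant 1 (1.41 ± 0.16, adjusted p = 1.97e-07) and at 105, 87.9, 102.5 and 93.5 in mutant 2 (0.63 ± 0.15, adjusted p = 0.00269). COL4A2 rose by 1.27 ± 0.14 in mutant 1 (adjusted p = 2.18e-07) and by 0.58 ± 0.14 in mutant 2 (adjusted p = 0.00254). The mutant libraries did not overlap with wild type for either gene. The mutant 2 calls of both genes were lost without wild-type replicate 3 (adjusted p = 0.012 for COL4A1 and 0.0111 for COL4A2) or without wild-type replicate 4 (0.0106 and 0.0128). In IGROV1, where the wild-type level was far higher, COL4A1 changed by 0.02 ± 0.12 in mutant 1 and 0.27 ± 0.12 in mutant 2 (adjusted p = 0.911 and 0.0756). The ratio of COL4A2 to COL4A1 per length lay between 1.09 and 2.48 in the 9 group means.

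**Figure D2:**
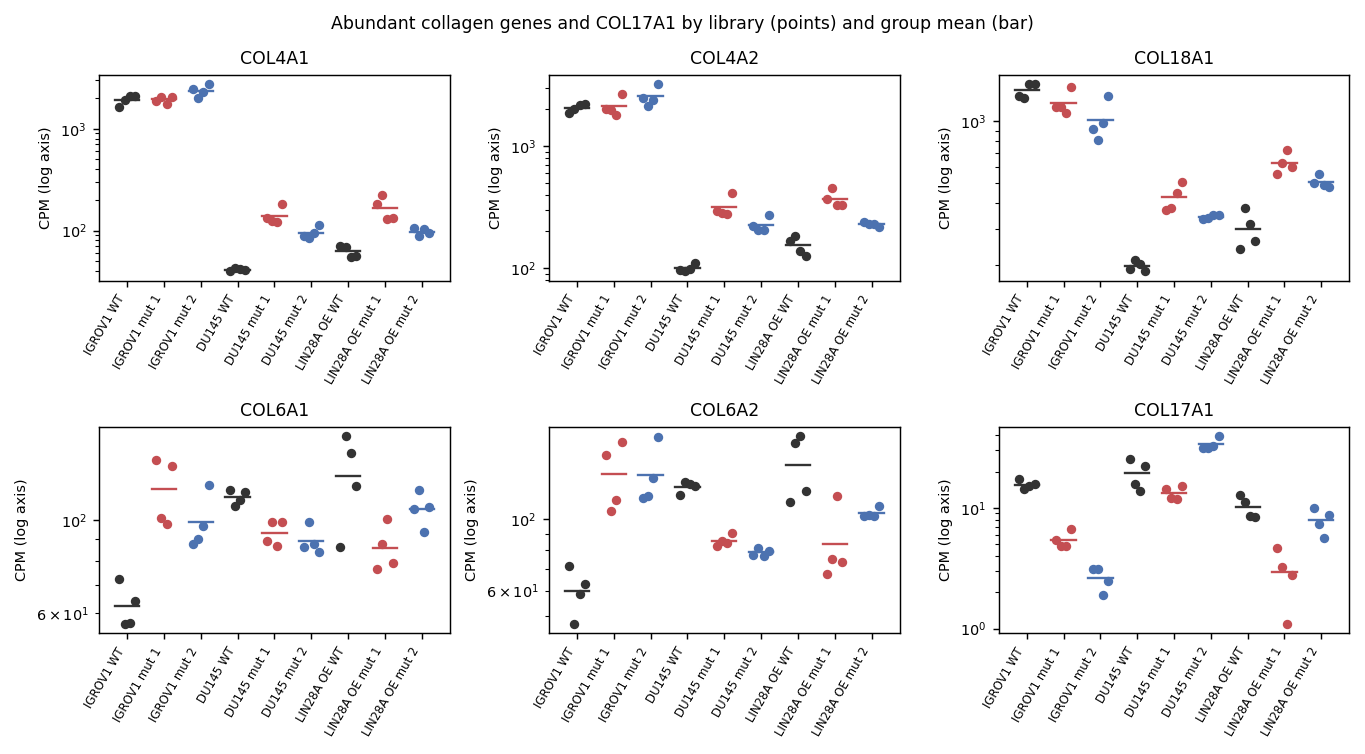
CPM (log axis) of the abundant genes COL4A1, COL4A2, COL18A1, COL6A1 and COL6A2, and of COL17A1, in each library (points) with the group mean (bar), for the 9 groups. COL4A1 and COL4A2 of the DU145 mutants lie above the wild-type points, whereas COL6A2 lies below them in DU145 and above them in IGROV1.

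COL4A5, an X-linked chain of specialised basement membranes that is mutated in Alport syndrome, split the 2 clones. In DU145 it stood at 7.17, 11.1, 8.81 and 9.73 CPM in wild type, at 62.6, 53.9, 59.98 and 48.9 in mutant 1 and at 0, 0, 0 and 0.09 in mutant 2. It thus rose in mutant 1 (log2 fold change 2.63 ± 0.19, adjusted p = 3.56e-10), while mutant 2 held 1 read against 355 in wild type, a 399-fold lower level with a 95% exact counting interval of 71.2 to 15800 (adjusted p = 4.01e-12). With LIN28A the values were 2.20, 3.92, 3.04 and 2.21 CPM in wild type, 59.0, 61.7, 80.5 and 72.4 in mutant 1 (4.57 ± 0.21, adjusted p = 6.71e-14) and 0.05, 0, 0.20 and 0.09 in mutant 2 (-5.08 ± 0.40, adjusted p = 8.21e-10). Its head-to-head partner COL4A6 rose in mutant 1 alike, to 2.36 to 4.75 CPM from 0 to 0.50 in DU145 (3.96 ± 0.46, adjusted p = 5.38e-07) and to 2.59 to 4.40 from 0 to 0.11 with LIN28A (5.47 ± 0.51, adjusted p = 1.26e-08). In mutant 2 COL4A6 was at 0 to 0.18 CPM and was not called. In IGROV1 COL4A5 was at 115 to 139 CPM in 11 of 12 libraries and at 144 in the other, and was not called in either clone.

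COL4A3 and COL4A4, the partners of COL4A5 in the glomerular network, followed another pattern. COL4A4 fell in both IGROV1 clones, from 8.62, 9.14, 12.02 and 13.8 CPM in wild type to 2.31, 1.08, 1.65 and 1.24 in mutant 1 (-2.75 ± 0.24, adjusted p = 1.30e-06) and 0.68, 0.78, 0.55 and 0.60 in mutant 2 (-4.03 ± 0.26, adjusted p = 6.49e-08), with no overlap. In DU145 it rose in mutant 1, from 12.1, 28.9, 23.3 and 18.04 CPM to 74.2, 56.4, 77.2 and 51.2 (1.67 ± 0.24, adjusted p = 1.16e-05), and stood at 24.4, 22.2, 22.5 and 15.4 in mutant 2 (0.03 ± 0.25, adjusted p = 0.951). In LIN28A OE DU145 mutant 1 it rose by 0.87 ± 0.23 (adjusted p = 0.00429), a call lost without wild-type replicate 1 or 2 or mutant replicate 3 or 4 (adjusted p = 0.0128 to 0.0223). COL4A3 was not called in the 4 DU145-derived mutant groups, was too low to be tested in IGROV1 and stood at 0.037 to 0.667 of the level of COL4A4 per length. By class, 5 of 6 type IV genes rose and 0 fell in mutant 1 of DU145 (12.9% and 13.1% of all genes did) and of LIN28A OE DU145 (13% and 15.2%). In mutant 2, 2 rose and 1 fell in DU145 (10.9% and 13%) and in LIN28A OE DU145 (11.4% and 12.5%). Of 5 tested in IGROV1, 0 rose and 1 fell in mutant 1 (12.8% and 15%) and in mutant 2 (13.2% and 14.5%). In so small a class, the single falls were near the share of all genes.

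COL18A1, the multiplexin of vascular and epithelial basement membranes, rose in the 4 DU145-derived mutant groups. It stood at 190, 211, 202 and 186 CPM in wild-type DU145, at 371, 377, 448.5 and 508 in mutant 1 (1.13 ± 0.13, adjusted p = 3.84e-07) and at 333, 338, 350.2 and 352 in mutant 2 (0.79 ± 0.13, adjusted p = 3.82e-05). With LIN28A it stood at 238, 377.5, 317 and 260.5 CPM in wild type, at 553.5, 629, 727 and 602 in mutant 1 (1.07 ± 0.13, adjusted p = 5.62e-07) and at 501, 552, 492 and 478 in mutant 2 (0.76 ± 0.13, adjusted p = 5.96e-05). No mutant library overlapped with wild type in these 4 comparisons. In IGROV1 the log2 fold changes were -0.19 ± 0.14 in mutant 1 (adjusted p = 0.302) and -0.52 ± 0.14 in mutant 2 (adjusted p = 0.0115). The other multiplexin, COL15A1, had 0 to 38 reads per group.

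The type VI genes COL6A1 and COL6A2, whose chains join in 1 microfibril, rose in IGROV1, while COL6A2 fell in every DU145-derived mutant. COL6A2 stood at 71.5, 47.5, 58.6 and 62.7 CPM in wild-type IGROV1, at 157.5, 106, 114 and 172 in mutant 1 (1.21 ± 0.19, adjusted p = 2.08e-04) and at 116, 117.5, 134 and 178.5 in mutant 2 (1.16 ± 0.19, adjusted p = 2.84e-04). COL6A1 stood at 72.4, 56.6, 56.7 and 64.2 CPM in wild type, at 139.9, 101, 98.0 and 135 in mutant 1 (0.94 ± 0.15, adjusted p = 2.11e-04) and at 87.6, 90.2, 96.8 and 121 in mutant 2 (0.64 ± 0.15, adjusted p = 0.00347). The IGROV1 groups did not overlap for either gene, although the mutant 2 call of COL6A1 was lost without wild-type replicate 2, 3 or 4 or mutant replicate 3 (adjusted p = 0.0101 to 0.0146).

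In DU145 COL6A2 stood at 118, 129, 128 and 127 CPM in wild type, at 82.2, 85.2, 84.3 and 90.1 in mutant 1 (-0.54 ± 0.15, adjusted p = 0.006) and at 77.1, 81.1, 76.8 and 79.8 in mutant 2 (-0.68 ± 0.15, adjusted p = 7.90e-04). With LIN28A it stood at 112, 172, 179.8 and 122 CPM in wild type, at 67.5, 74.9, 117 and 73.6 in mutant 1 (-0.81 ± 0.15, adjusted p = 1.07e-04) and at 102, 103, 102 and 109.5 in mutant 2 (-0.50 ± 0.15, adjusted p = 0.00956). The DU145 groups did not overlap, and mutant 1 replicate 3 overlapped with wild type in the LIN28A background. The calls in DU145 mutant 1 and in LIN28A OE mutant 2 were each lost without any 1 of 6 of the 8 libraries (adjusted p = 0.0135 to 0.0174 and 0.0225 to 0.0495), that is without all but wild-type replicate 1 and mutant replicate 4 in the first and all but wild-type replicates 1 and 4 in the second. COL6A1 fell in mutant 1 of LIN28A OE DU145 (-0.58 ± 0.14, adjusted p = 0.00171; 0.0121 without wild-type replicate 2) and was not called in the other 3 groups. COL6A3, the third classical chain, had 0 to 5 reads per group in all 9 groups. COL6A2 exceeded COL6A1 per length in every group mean, by 1.08 to 1.67 times.

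COL5A1, a chain of the type V collagen that starts fibrils, rose in mutant 1 of every background and in mutant 2 of IGROV1, and was near absent in mutant 2 of DU145 with and without LIN28A. In IGROV1 it stood at 10.51, 6.90, 8.42 and 8.69 CPM in wild type, at 42.9, 26.0, 29.3 and 43.2 in mutant 1 (2.04 ± 0.20, adjusted p = 3.85e-06) and at 17.2, 21.1, 23.1 and 26.3 in mutant 2 (1.31 ± 0.20, adjusted p = 1.60e-04). Both IGROV1 mutants lay wholly above wild type.

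In DU145 COL5A1 stood at 0.98, 1.91, 1.54 and 0.83 CPM in wild type and at 7.80, 7.53, 9.94 and 9.61 in mutant 1 (2.71 ± 0.31, adjusted p = 1.14e-06), and had 0 reads in all 4 libraries of mutant 2. Counting 3 reads over the group as the floor, its level in mutant 2 was at least 19.5-fold lower than in wild type and at least 125-fold lower than in mutant 1. In LIN28A OE DU145 it stood at 1.19, 3.51, 3.33 and 3.17 CPM in wild type and at 21.4, 31.0, 34.8 and 24.8 in mutant 1 (3.33 ± 0.27, adjusted p = 5.24e-09). Mutant 2 held 1 read there against 160 in wild type, 179-fold lower with a counting interval of 31.7 to 7110 (adjusted p = 3.21e-08).

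COL5A3, another type V chain, rose most in IGROV1. It stood at 0.11, 0.56, 0.50 and 0.56 CPM in wild type, at 32.0, 26.2, 28.6 and 43.7 in mutant 1 (6.24 ± 0.36, adjusted p = 2.59e-08) and at 3.52, 2.58, 4.28 and 5.79 in mutant 2 (3.17 ± 0.38, adjusted p = 2.01e-05). The 3 IGROV1 groups did not overlap. It also rose in DU145 mutant 1, from 0.12 to 0.50 CPM to 1.09 to 1.58 (2.39 ± 0.58, adjusted p = 0.00211; 0.0101 without wild-type replicate 3). In LIN28A OE mutant 2 it fell by 1.91 ± 0.53 (adjusted p = 0.00685), a call lost without wild-type replicate 1 or 2 or mutant replicate 1, 3 or 4 (adjusted p = 0.0165 to 0.0412).

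COL5A2, the partner of COL5A1 in the common type V molecule, rose in both clones of DU145 and LIN28A OE DU145, unlike COL5A1. In DU145 it stood at 9.89, 6.43, 4.72 and 5.93 CPM in wild type, at 9.43, 11.2, 14.2 and 11.8 in mutant 1 (0.81 ± 0.19, adjusted p = 0.00146) and at 16.1, 14.8, 16.9 and 15.2 in mutant 2 (1.22 ± 0.18, adjusted p = 1.50e-05). With LIN28A it stood at 6.44, 4.68, 3.69 and 3.94 CPM in wild type, at 12.3, 10.95, 10.4 and 13.5 in mutant 1 (1.32 ± 0.18, adjusted p = 4.04e-06) and at 13.7, 14.7, 13.1 and 13.9 in mutant 2 (1.54 ± 0.18, adjusted p = 4.76e-07). Wild-type replicate 1 of DU145 overlapped with mutant 1, and the other groups lay apart.

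COL11A2, a minor fibrillar chain, rose in LIN28A OE DU145 from 0.68, 1.05, 0.94 and 0.48 CPM to 2.03, 2.81, 2.89 and 2.44 in mutant 1 (1.65 ± 0.28, adjusted p = 4.74e-05) and 1.90, 1.98, 2.53 and 1.17 in mutant 2 (1.24 ± 0.28, adjusted p = 0.00139). It was also called in mutant 1 of DU145 (1.13 ± 0.32, adjusted p = 0.0077) and of IGROV1 (1.25 ± 0.30, adjusted p = 0.00517). The DU145 call was lost without any library but wild-type replicate 1 and mutant 1 replicate 2 (adjusted p = 0.0105 to 0.0398), and the IGROV1 call without wild-type replicate 2, 3 or 4 or mutant replicate 1 or 3 (0.0115 to 0.0245).

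The type I genes COL1A1 and COL1A2, which encode the main collagen of skin and bone, were far apart in level, with COL1A2 at 0.0033 to 0.135 of COL1A1 per length. COL1A1 went opposite ways in the IGROV1 clones, from 12.9, 14.5, 14.1 and 15.02 CPM in wild type to 10.6, 7.54, 8.35 and 8.21 in mutant 1 (-0.69 ± 0.15, adjusted p = 0.00263; 0.0103 without mutant 1 replicate 2) and 18.7, 23.6, 23.0 and 28.7 in mutant 2 (0.71 ± 0.14, adjusted p = 0.00153). The 3 groups did not overlap. COL1A2 stood at 0.11, 0.50, 0.27 and 0.12 CPM in wild-type DU145, at 1.00, 0.91, 0.88 and 0.72 in mutant 1 (1.76 ± 0.45, adjusted p = 0.00351) and at 0, 0, 0.07 and 0 in mutant 2. The fall in mutant 2 was 1 read against 10, 11.2-fold with a counting interval of 1.60 to 488 (adjusted p = 0.00834).

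Both DU145 calls of COL1A2 rested on few reads. The mutant 1 call was lost without wild-type replicate 1, 3 or 4 or mutant replicate 1 (adjusted p = 0.0101 to 0.0132), the mutant 2 call without wild-type replicate 2 or 3 or mutant replicate 1, 2 or 4 (0.0187 to 0.0768). In LIN28A OE mutant 1 COL1A2 had 88 reads against 2 in wild type, a 40.9-fold higher level with a counting interval of 11 to 343 (adjusted p = 6.81e-08), with 1.03 to 1.66 CPM in the 4 mutant libraries and 0 to 0.10 in wild type. COL3A1, the reticular fibre collagen, rose from 6 reads in wild-type DU145 to 48 in mutant 2 (2.75 ± 0.67, adjusted p = 0.00253), a call lost without wild-type replicate 3 (0.0129) or mutant replicate 4 (0.012), and from 8 to 124 in LIN28A OE mutant 1 (3.77 ± 0.55, adjusted p = 9.26e-06). By class, 5 of 9 fibrillar genes rose and 0 fell in DU145 mutant 1 (12.9% and 13.1% of all genes did). In LIN28A OE mutant 1, 5 rose and 1 fell (13% and 15.2%). Mutant 2 had 2 up and 2 down in DU145 (10.9% and 13%) and in LIN28A OE DU145 (11.4% and 12.5%). With 9 genes, the 1 fall and the mutant 2 counts were not far from these shares.

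**Figure D3:**
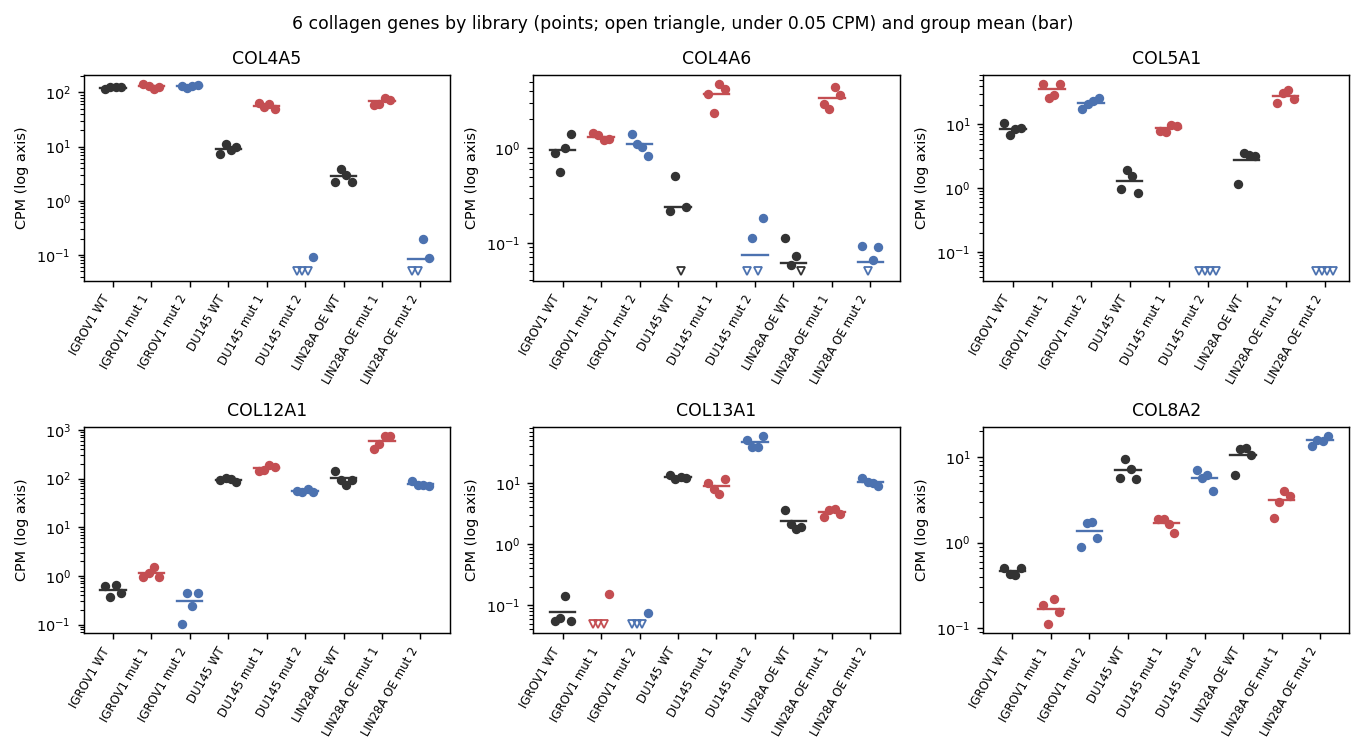
CPM (log axis) of 6 collagen genes in each library (points; open triangles lie under 0.05 CPM) with the group mean (bar), for the 9 groups. COL4A5, COL4A6, COL5A1 and COL12A1 lie higher in mutant 1 than in mutant 2 of both DU145 backgrounds, and COL13A1 and COL8A2 lie lower.

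COL12A1, the highest FACIT gene in the DU145-derived lines, encodes a chain that links fibrils under tension. COL12A1 rose in DU145 mutant 1, from 93.3, 104, 96.7 and 83.5 CPM to 144, 149, 187 and 174 (0.81 ± 0.17, adjusted p = 7.73e-04), and fell in mutant 2, to 55.1, 53.8, 61.7 and 52.02 (-0.77 ± 0.17, adjusted p = 0.00134). In LIN28A OE DU145 it stood at 141, 94.7, 73.6 and 92.7 CPM in wild type, rose to 403, 505, 741 and 739 in mutant 1 (2.57 ± 0.18, adjusted p = 1.41e-10) and stood at 89.3, 75.3, 73.2 and 71.5 in mutant 2 (-0.38 ± 0.17, adjusted p = 0.0925). The mutant 1 libraries lay above all wild-type libraries of their background.

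COL16A1, a FACIT chain, rose in both DU145 clones, from 3.15, 2.91, 1.91 and 2.14 CPM to 4.72, 5.17, 5.98 and 5.31 in mutant 1 (1.09 ± 0.24, adjusted p = 0.0012) and 7.65, 8.79, 8.60 and 11.3 in mutant 2 (1.83 ± 0.24, adjusted p = 1.72e-06), with no overlap. It was not called with LIN28A (0.46 ± 0.22 and 0.56 ± 0.21). COL21A1 went opposite ways in the LIN28A OE clones. It stood at 1.02, 1.11, 1.38 and 0.96 CPM in wild type, at 0.06, 0.14, 0.40 and 0.32 in mutant 1 (-2.20 ± 0.43, adjusted p = 2.72e-04) and at 2.60, 2.80, 2.66 and 2.15 in mutant 2 (1.19 ± 0.31, adjusted p = 0.00442). The mutant 2 call was lost without any library but wild-type replicate 3 and mutant replicate 4 (adjusted p = 0.0103 to 0.0132). In DU145 mutant 1 COL21A1 fell as well, to 2 reads from 26 (13.6-fold, counting interval 3.41 to 118, adjusted p = 7.50e-04).

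Among the transmembrane chains, COL17A1, which anchors epithelial cells at hemidesmosomes, fell in both IGROV1 clones. It stood at 17.3, 14.3, 15.2 and 15.8 CPM in wild type, at 5.42, 4.82, 4.84 and 6.66 in mutant 1 (-1.53 ± 0.16, adjusted p = 8.14e-06) and at 3.10, 3.11, 1.90 and 2.48 in mutant 2 (-2.56 ± 0.17, adjusted p = 8.25e-08). The 3 groups did not overlap. Some epithelial markers were lower in both clones, and others only in mutant 2. EPCAM stood at 74.2 to 90.5 CPM in wild-type IGROV1 and at 0 to 0.50 in the mutants, and KRT8 at 180 to 247 and 0.94 to 6.66. CDH1 stood at 3.89 to 5.80 CPM in wild type, at 3.41 in mutant 1 replicate 4 and at 0.06 to 0.55 in the other mutant libraries. KRT18 stood at 209 to 272 CPM in wild type, 212 to 469 in mutant 1 and 27.8 to 50.3 in mutant 2. KRT19 stood at 681 to 857, 527 to 961 and 306 to 359 CPM. KRT7 was at 0.08 to 1.81 CPM in all IGROV1 libraries. The sum of the 6 epithelial markers was 1170 to 1340 CPM in wild type, 775 to 1440 in mutant 1 and 342 to 390 in mutant 2, and its part in the collagen results of IGROV1 was not tested. In the DU145-derived groups that sum overlapped between wild type and mutants (3920 to 5920 CPM), while EPCAM was lower in mutant 1 (8.75 to 13.2 CPM in DU145) than in wild type (46.6 to 67.9) and mutant 2 (43.8 to 61.4).

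COL17A1 also fell in mutant 1 of LIN28A OE DU145, from 12.8, 11.1, 8.55 and 8.36 CPM to 4.65, 3.24, 1.10 and 2.76 (-1.81 ± 0.28, adjusted p = 1.65e-05), and in the other 3 DU145-derived groups it was not called. COL13A1, a chain of the neuromuscular junction and cell contacts, rose in mutant 2 and was not called in mutant 1. It stood at 13.4, 11.7, 12.6 and 12.1 CPM in wild-type DU145, at 10.2, 8.08, 6.68 and 11.5 in mutant 1 (-0.44 ± 0.19, adjusted p = 0.0727) and at 51.2, 38.5, 38.8 and 58.7 in mutant 2 (1.90 ± 0.19, adjusted p = 2.69e-08). With LIN28A the mutant 2 rise was 2.12 ± 0.21 (adjusted p = 2.66e-08). The transmembrane chains COL25A1 and COL23A1 were called in IGROV1 mutant 2 and not in mutant 1. COL25A1 fell, from 5.66 to 15.2 CPM in wild type to 0.53 to 3.27 in mutant 2, and stood at 1.08 to 4.61 in mutant 1. COL23A1 rose, from 0.28 to 0.67 CPM to 1.28 to 1.64, and stood at 0.46 to 1.305 in mutant 1.

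Among the remaining chains, COL10A1 of hypertrophic cartilage had 2 reads in wild-type IGROV1, 89 in mutant 1 and 122 in mutant 2. The libraries stood at 0, 0.06, 0 and 0.06 CPM in wild type, 3.36, 1.31, 0.99 and 0.46 in mutant 1 and 1.68, 1.64, 1.90 and 1.96 in mutant 2. The ratios to wild type were 59.7 (counting interval 16.1 to 501, adjusted p = 7.22e-05) and 58.1 (15.7 to 485, adjusted p = 5.26e-05). COL26A1 rose in both IGROV1 clones, to 94.9, 102, 92.9 and 81.0 CPM in mutant 1 (0.43 ± 0.10, adjusted p = 0.00282) and 156, 167, 166.5 and 147 in mutant 2 (1.18 ± 0.10, adjusted p = 6.31e-07), from the wild-type values given earlier. The groups lay apart, and the mutant 1 call was lost without wild-type replicate 1, 2 or 3 (adjusted p = 0.0103 to 0.0118).

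COL8A2 of corneal and vascular basement membranes fell in mutant 1 of DU145, to 1.29 to 1.91 CPM from 5.58 to 9.55 (-2.01 ± 0.28, adjusted p = 5.47e-06), and of LIN28A OE DU145, to 1.97 to 4.05 from 6.16 to 12.9 (-1.74 ± 0.24, adjusted p = 3.14e-06). In IGROV1 mutant 2 it rose by 1.51 ± 0.27 (adjusted p = 6.08e-04). COL7A1, the chain of anchoring fibrils under the epidermis, rose in mutant 1 of DU145 (2.06 ± 0.34, adjusted p = 4.74e-05) and of LIN28A OE DU145 (2.06 ± 0.29, adjusted p = 4.49e-06). COL28A1 fell in the same 2 groups (-2.19 ± 0.39, adjusted p = 1.07e-04, and -2.02 ± 0.34, adjusted p = 4.51e-05). COL9A3, a FACIT chain of cartilage, fell in IGROV1 mutant 1 (-1.95 ± 0.40, adjusted p = 0.0017) and in DU145 mutant 2 (-1.70 ± 0.42, adjusted p = 0.00261). The latter call was lost without wild-type replicate 2 or mutant replicate 2 or 3 (adjusted p = 0.0108 to 0.0189).

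Set directly against each other, the 2 clones differed in 18 of 30 collagen genes in DU145 (35.5% of all genes differed), in 16 in LIN28A OE DU145 (41.5%) and in 7 of 24 in IGROV1 (16.6%). The DU145 and LIN28A OE DU145 comparisons share no library. Of the collagen genes called in both, 9 of 30 were higher in mutant 1 in both (30% against 14% of all genes tested), 5 were lower in both (16.7% against 13%) and 1 (3.33% against 0.103%), COL3A1, was opposite (-3.06 ± 0.70 in DU145 and 1.60 ± 0.42 with LIN28A, the latter lost without mutant 1 replicate 4, adjusted p = 0.0173). COL4A5 was 2480-fold higher in mutant 1 in DU145 by reads (2307 against 1, counting interval 444 to 97900) and COL4A6 53.7-fold (150 against 3, interval 18 to 263). COL4A4 was higher in mutant 1 of IGROV1 than in mutant 2 (1.27 ± 0.30, adjusted p = 0.00695), and with the passage order as a block, which pairs these libraries, this was 1.26 with adjusted p = 0.0123. That call was also lost without any library but mutant 1 replicates 2 and 4 (adjusted p = 0.0133 to 0.034).

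Across the same clones with and without LIN28A, which are separate libraries with separate wild types, 12 of 30 collagen genes rose in mutant 1 in both backgrounds (40% against 7.71% of all genes tested), 4 fell in both (13.3% against 8.52%) and 0 went opposite ways (0.0824% of all genes did). For mutant 2, 5 rose in both (16.7% against 6.89%), 3 fell in both (10% against 8.25%, near the share of all genes) and 0 were opposite (0.0618% of all genes were). The mutant effect itself was tested for a difference between the backgrounds. For mutant 1, 2 of 30 collagen genes differed (0.845% of all genes did), COL12A1 by 1.76 ± 0.24 (adjusted p = 2.57e-04) and COL4A5 by 1.94 ± 0.27 (adjusted p = 2.34e-04), both with the larger rise under LIN28A. For mutant 2, 0 of 30 differed by edgeR (0.494% of all genes did) and 0 by DESeq2, with 7 of 30 at an unadjusted p under 0.05.

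**Figure D4:**
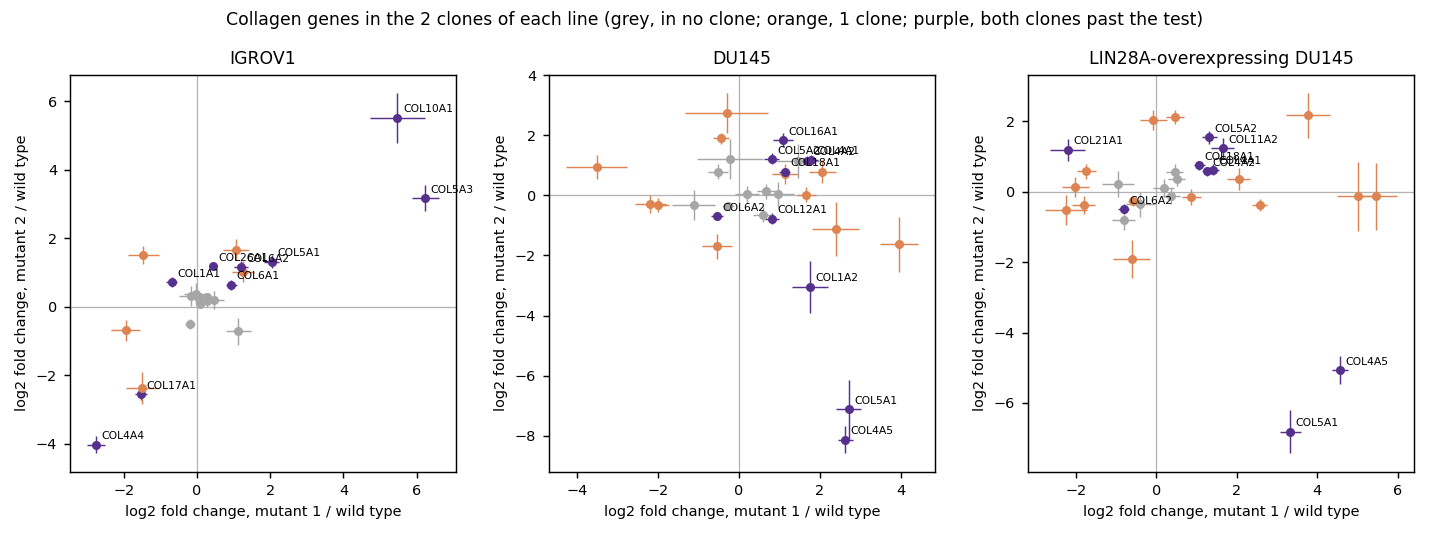
Log2 fold change against wild type in mutant 1 (x axis) and mutant 2 (y axis) of each line, with SE bars, for the collagen genes tested; purple points were called in both clones. The clones of a line share their wild-type libraries, and COL5A1 lies far to the lower right in both DU145 backgrounds, where its mutant 2 value rests on 0 reads in DU145 and 1 read with LIN28A.

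Between DU145 and LIN28A OE DU145, which also differ in transduction, selection and passage, a smaller set moved, mostly upward. In wild-type DU145 9 of 30 collagen genes rose (7.05% of all genes did) and 2 fell (3.21%), in mutant 1 5 rose (2.02%) and 2 fell (1.5%), and in mutant 2 8 rose (11.4%) and 2 fell (8.59%). The 3 comparisons share no library. The wild-type count was 7 without DU145 wild-type replicate 1 or LIN28A OE wild-type replicate 2 and 2 when only the libraries of the 2 groups were fitted. LIN28A itself was 69.0, 366 and 233 CPM in the wild-type, mutant 1 and mutant 2 groups, and the part of that difference in the collagen results was not tested.

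COL18A1 and COL14A1 rose and COL13A1 fell with LIN28A in all 3 backgrounds. COL13A1, whose DU145 values were given above, stood with LIN28A at 3.61, 2.17, 1.74 and 1.92 CPM in wild type (-2.36 ± 0.21, adjusted p = 1.38e-07), at 2.74, 3.67, 3.70 and 3.14 in mutant 1 (-1.46 ± 0.20, adjusted p = 8.83e-05) and at 12.2, 10.49, 10.2 and 9.05 in mutant 2 (-2.14 ± 0.18, adjusted p = 6.90e-08). In each background every LIN28A library lay below every library without it. COL14A1, a FACIT chain of skin and tendon, stood at 1.74, 4.32, 3.72 and 2.61 CPM in wild-type DU145 and 3.56, 10.3, 19.2 and 15.2 with LIN28A (1.95 ± 0.43, adjusted p = 0.00274), which overlapped. In mutant 1 the values were 1.45, 1.82, 1.41 and 0.86 against 3.99, 3.96, 9.02 and 7.70 (2.11 ± 0.49, adjusted p = 0.00795), and in mutant 2 1.86, 4.004, 3.29 and 1.01 against 11.6, 15.9, 10.1 and 18.7 (2.48 ± 0.44, adjusted p = 2.44e-04). The wild-type call of COL14A1 was lost without DU145 replicate 1 or 4 or LIN28A OE replicate 3 or 4 (adjusted p = 0.0101 to 0.0168), and the mutant 1 call without any library but LIN28A OE replicates 1 and 2 (0.0202 to 0.0349).

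COL18A1 rose with LIN28A by 0.61 ± 0.13 in wild type (adjusted p = 0.00175; 0.0117 without LIN28A OE replicate 2), by 0.55 ± 0.13 in mutant 1 (adjusted p = 0.00819) and by 0.58 ± 0.13 in mutant 2 (adjusted p = 0.0017). The mutant 1 call was lost without any library but DU145 replicate 4 and LIN28A OE replicate 1 (adjusted p = 0.0162 to 0.0416). COL4A1 and COL4A2 rose by 0.61 ± 0.16 and 0.63 ± 0.14 in wild type (adjusted p = 0.00764 and 0.00316) and were not called in the mutants. The COL4A1 call was lost without any 1 of the 8 libraries (adjusted p = 0.0106 to 0.0278) and the COL4A2 call without DU145 replicate 1, 2 or 3 or LIN28A OE replicate 2 (0.0102 to 0.0183).

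COL4A3, COL4A4, COL9A3, COL26A1 and COL1A1 rose with LIN28A in wild type and in mutant 2. COL4A3 stood at 2.83, 9.85, 10.7 and 8.07 CPM in wild-type DU145 and 13.3, 33.9, 45.2 and 41.6 with LIN28A (2.09 ± 0.39, adjusted p = 6.21e-04), and in mutant 2 at 9.71, 10.1, 7.93 and 4.98 against 21.1, 29.9, 27.6 and 26.5 (1.71 ± 0.39, adjusted p = 0.00203; 0.011 without DU145 mutant 2 replicate 4). Neither pair overlapped. COL4A4 rose by 1.55 ± 0.24 and 1.37 ± 0.24 (adjusted p = 9.94e-05 and 2.47e-04), COL9A3 by 1.49 ± 0.31 and 2.37 ± 0.38 (0.00153 and 9.15e-05) and COL26A1 by 2.35 ± 0.48 and 3.23 ± 0.35 (0.00137 and 9.46e-07). COL1A1 rose by 0.96 ± 0.23 in wild type (adjusted p = 0.00534), lost without DU145 replicate 1, 3 or 4 or LIN28A OE replicate 2 or 3 (0.014 to 0.0276), and by 1.18 ± 0.22 in mutant 2 (4.81e-04).

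COL17A1 fell with LIN28A in mutant 1, from 14.3, 12.1, 11.8 and 15.4 CPM to the values given above (-2.20 ± 0.28, adjusted p = 3.12e-05), and in mutant 2, from 31.7, 31.3, 32.7 and 39.4 to 10.1, 7.31, 5.59 and 8.69 (-2.08 ± 0.25, adjusted p = 4.65e-06). In wild type the value was -0.91 ± 0.25 (adjusted p = 0.0132). COL4A5 fell in wild type (-1.67 ± 0.21, adjusted p = 7.34e-06), and COL12A1 (1.86 ± 0.18, adjusted p = 4.90e-07), COL5A1 (1.68 ± 0.24, adjusted p = 2.29e-04) and COL3A1 (3.88 ± 0.62, adjusted p = 3.89e-04) rose in mutant 1.

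**Figure D5:**
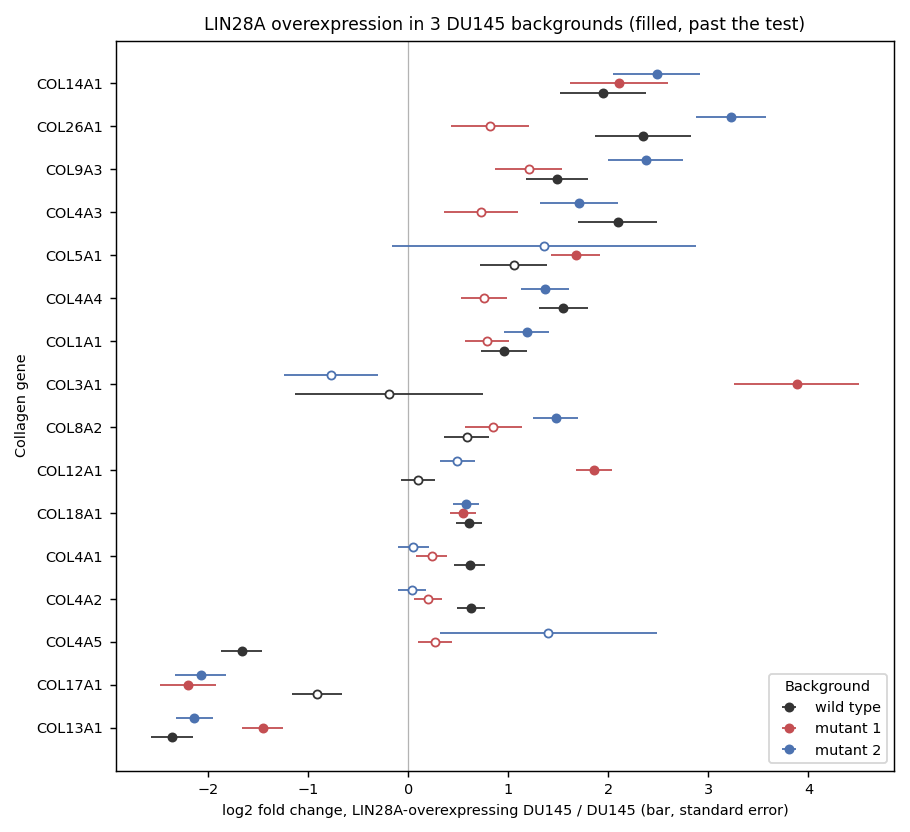
Log2 fold change with LIN28A overexpression (x axis, with SE) of the 16 collagen genes called in at least 1 of the 3 DU145 backgrounds; filled points passed the test. COL14A1 and COL18A1 lie right of 0 and COL13A1 left of 0, filled in all 3.

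The mean mutant effect was also compared between the lines. Of 34 collagen genes tested, 17 differed between IGROV1 and DU145 (24.2% of all genes did), 8 with the more positive effect in IGROV1 and 9 with the more negative. COL6A2 (difference of log2 fold changes 1.80 ± 0.21, adjusted p = 2.31e-08) and COL6A1 (1.11 ± 0.18, adjusted p = 7.57e-06) were among the first. COL4A4 (-4.22 ± 0.34, adjusted p = 3.87e-12), COL17A1 (-2.18 ± 0.28, adjusted p = 1.17e-07), COL4A1 (-1.33 ± 0.17, adjusted p = 1.97e-07) and COL18A1 (-1.30 ± 0.17, adjusted p = 2.47e-07) were among the second.

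Of the 38 genes of collagen biosynthesis and processing (hydroxylases, chaperones, propeptidases and cross-linking enzymes), 32 were tested in IGROV1 and 34 in the DU145-derived lines. In IGROV1 8 rose and 5 fell in mutant 1 (12.8% and 15% of all genes did) and 7 rose and 8 fell in mutant 2 (13.2% and 14.5%). In DU145 14 rose and 5 fell in mutant 1 (12.9% and 13.1%) and 11 rose and 8 fell in mutant 2 (10.9% and 13%). In LIN28A OE DU145 8 rose and 10 fell in mutant 1 (13% and 15.2%), and 8 rose and 5 fell in mutant 2 (11.4% and 12.5%). The shares that fell in mutant 1 of IGROV1 (15.6%), mutant 1 of DU145 (14.7%) and mutant 2 of LIN28A OE DU145 (14.7%) were near those of all genes. PLOD2, the lysyl hydroxylase of collagen telopeptides, fell in IGROV1 from 31.3 to 37.3 CPM to 0.77 to 1.21 in mutant 1 (-5.21 ± 0.35, adjusted p = 1.03e-07) and 0.37 to 1.66 in mutant 2 (-5.38 ± 0.34, adjusted p = 6.10e-08). ADAMTS2, a procollagen N-propeptidase, rose there by 1.09 ± 0.24 and 2.81 ± 0.23 (adjusted p = 0.00302 and 5.34e-07).

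In DU145 the cross-linking enzymes LOX and LOXL2 rose in mutant 1 and fell in mutant 2. LOX stood at 10.8 to 16.2 CPM in wild type, 37.3 to 54.2 in mutant 1 (1.75 ± 0.23) and 3.83 to 5.23 in mutant 2 (-1.62 ± 0.25, adjusted p = 2.50e-05). LOXL2 stood at 346 to 513, 846 to 959 and 123 to 156 CPM (1.00 ± 0.13 and -1.67 ± 0.13, adjusted p = 7.93e-10 for mutant 2). CREB3L1, a transcription factor that activates type I collagen genes, rose in both clones (1.43 ± 0.32 and 2.04 ± 0.30, adjusted p = 0.00109 and 1.35e-05). With LIN28A overexpression 6 of the 34 biosynthesis genes rose and 4 fell in wild type (7.05% and 3.21% of all genes did), 0 rose and 2 fell in mutant 1 (2.02% and 1.5%), and 9 rose and 3 fell in mutant 2 (11.4% and 8.59%). The share that fell in mutant 2 (8.82%) was near that of all genes.

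Of the 11 collagen receptors 6 were tested in IGROV1, where 0 rose and 2 fell in mutant 1 (12.8% and 15% of all genes did) and 1 rose and 3 fell in mutant 2 (13.2% and 14.5%). ITGA2, the alpha chain of the main epithelial collagen receptor, fell from 34.6 to 51.2 CPM to 2.94 to 10.2 in mutant 1 (-2.46 ± 0.32) and 6.47 to 13.01 in mutant 2 (-2.02 ± 0.31, adjusted p = 1.85e-04). ITGA1 fell in mutant 1 (-1.91 ± 0.50, adjusted p = 0.00853) and rose in mutant 2 (2.74 ± 0.40, adjusted p = 1.21e-04). Of 9 tested in DU145 2 rose and 0 fell in mutant 1 (12.9% and 13.1% of all genes did) and 1 rose and 1 fell in mutant 2 (10.9% and 13%). With LIN28A 4 rose and 1 fell in mutant 1 (13% and 15.2%), and 1 rose and 1 fell in mutant 2 (11.4% and 12.5%). A single gene is 11.1% of the 9, so that the counts in both mutant 2 groups were near the background. ITGA11, a receptor for fibrillar collagens, rose in DU145 mutant 1 from 0.98 to 1.90 CPM to 15.2 to 23.2 (3.82 ± 0.29, adjusted p = 7.50e-10), the clone in which the fibrillar chains COL5A1 and COL1A2 also rose.

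The miRNAs whose seeds were printed above were measured in the small RNA libraries of the same groups. Of 12 members of the miR-29 and let-7 families, 9 and 8 were called in the IGROV1 mutants (47.1% and 48.7% of all miRNAs tested were), 4 and 6 in the DU145 mutants (32.5% and 21.9%) and 10 and 7 in the LIN28A OE DU145 mutants (33.7% and 22.9%). LIN28A overexpression called 8 in wild type, 5 in mutant 1 and 5 in mutant 2 (12.2%, 5.94% and 9.98%). The 4 of DU145 mutant 1 were 2 without its replicate 1, and the 8 of IGROV1 mutant 2 were 6 without wild-type replicate 4.

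hsa-mir-29a-3p, the most abundant of the miR-29 family, fell in 5 of 6 mutant groups. It stood at 2684, 2628, 2502 and 2985 CPM in wild-type IGROV1, at 1540, 1617, 1583 and 1947 in mutant 1 (-0.55 ± 0.10, adjusted p = 2.85e-04) and at 1921, 1783, 2178 and 2163 in mutant 2 (-0.35 ± 0.10, adjusted p = 0.00979), with no overlap. In DU145 it stood at 24890, 34210, 30950 and 27640 CPM in wild type, at 27430, 26800, 24480 and 24200 in mutant 1 (-0.37 ± 0.14, adjusted p = 0.0288) and at 19610, 14640, 17300 and 17970 in mutant 2 (-0.66 ± 0.14, adjusted p = 4.17e-04). With LIN28A it stood at 22160, 41610, 28190 and 28530 CPM in wild type, at 16010, 27270, 23250 and 22020 in mutant 1 (-0.62 ± 0.14, adjusted p = 5.91e-04) and at 13650, 17720, 12710 and 12660 in mutant 2 (-1.02 ± 0.14, adjusted p = 1.40e-06). LIN28A overexpression did not move it past the threshold in any background (0.02 to -0.34 on the log2 scale). The other members with this seed were called in fewer mutant groups. hsa-mir-29b-3p fell in LIN28A OE mutant 1 (-0.69 ± 0.20, adjusted p = 0.00722) and mutant 2 (-0.77 ± 0.20, adjusted p = 0.00441). In the IGROV1 and DU145 mutants it changed by -0.22 to 0.07 and was not called. hsa-mir-29c-3p fell only in LIN28A OE mutant 1 (-1.15 ± 0.22, adjusted p = 1.33e-04). In DU145 mutant 2 it changed by 0.42 ± 0.22 (adjusted p = 0.143). No relation between these levels and the collagen levels was tested.

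let-7g-5p stood at 9847 to 11160 CPM in wild-type DU145 and at 874 to 1459 with LIN28A (-3.10 ± 0.11, adjusted p = 1.66e-18), and in LIN28A OE DU145 at 7681 to 10140 in mutant 1 (2.69 ± 0.11) and 6294 to 6875 in mutant 2 (2.51 ± 0.11). In IGROV1 let-7g-5p rose in mutant 1 (1.47 ± 0.07, adjusted p = 2.40e-11) and fell in mutant 2 (-0.79 ± 0.07, adjusted p = 8.75e-08). There let-7i-5p went the same ways (1.29 ± 0.09 and -1.50 ± 0.09), but the family did not move as one. Of its other members in IGROV1, let-7c-5p rose in both clones (1.88 ± 0.13 and 1.58 ± 0.13). miR-98-5p fell in both (-2.69 ± 0.09 and -2.80 ± 0.09), and let-7a-5p was not called. In LIN28A OE mutant 2, let-7a-5p, let-7c-5p and let-7e-5p were not called.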

How the data were processed

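Poly(A)-selected RNA (NEBNext Ultra II Directional) and small RNA from 9 groups of 4 libraries were analysed. The mRNA values are gene counts deposited by the authors, who, by the study's methods and the submitters' processing notes, trimmed reads with Trimmomatic 0.39, removed rRNA with SortMeRNA, aligned to hg38 with HISAT2 2.1.0 and counted with HTSeq. The strand setting and annotation release are not given in the sources used here, so reads in overlapping antisense genes could have been assigned to a collagen gene. COL18A1-AS1, COL18A1-AS2 and COL4A2-AS1 held 0 to 13 reads per library. In each library 21.9 to 30.1% of reads were not assigned to a gene and stayed out of the library sizes. The small RNA values are miRNA read counts deposited by the authors per library; a combined table of the series has 72 sample columns that the labels do not tie to single samples and was not used, which departs from the planned input.

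Counts were fitted with edgeR 4.0.16 in R 4.3.3 (quasi-likelihood F test, TMM factors, filterByExpr by group with a minimum count of 10, Benjamini-Hochberg adjustment over all genes tested, threshold 0.01), in 1 fit of the 12 IGROV1 libraries (13932 genes, 24 collagen genes), 1 of the 24 DU145-derived libraries (14561 and 30) and, for comparisons between lines, 1 of all 36 (15556 and 34). Sharing 1 fit assumes that the groups vary alike. For small RNA 749 and 842 miRNAs were tested. DESeq2 1.42.0, RLE factors, total counts, no filter, pooled clones, a replicate block and leaving out each library were alternatives. The scripts were tested on simulated counts. No pair of libraries was a duplicate deposit. By a Poisson chi-square per gene between 2 mRNA libraries, replicate 4 of both IGROV1 mutants lay far from replicates 1 to 3 (46.4 to 94.3). Replicates 1 to 3 lay at 7.23 to 13.8 from each other. Replicate 1 of wild-type LIN28A OE DU145 also lay apart (75.2 to 106, against 5.5 to 21.9 among the others). The 4 replicate numbers of a group are passages; libraries with the same number deviated together (every correlation over 0.1) in 3 of 13 comparisons, LIN28A OE mutant 2 against wild type and mutant 1 against mutant 2 in IGROV1 and DU145, over all comparisons from -0.345 to 0.828. Fold changes against groups with 1 to 3 reads are given with 95% exact conditional intervals, and groups at 0 with a floor of 3 reads over the group; both are for mRNA counts and cover counting error only, as no use of molecular identifiers is stated for the mRNA reads. The small RNA reads carried random end bases as molecular identifiers, by the study's methods, and whether the deposited miRNA counts were collapsed by them was not checked.

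Full values are given for collagen genes called 2-fold the same way in both clones, called opposite ways, called 2-fold with LIN28A in at least 2 backgrounds, or among the 6 highest per kilobase in a wild type. Some of the other collagen genes are named with fewer values, and the rest are not named. Of the pathway lists, genes with the largest changes were named. The members and lists were chosen with earlier results of these data known.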

Additional observations from a re-analysis of the deposited data

Results flagged for a closer look

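In 7 of 152 groups of 4 libraries 1 library stood far from the other 3 (by Dixon's test at the 95% level), where chance alone gives about 1 in 20. COL4A2 was at 415.5 CPM in DU145 mutant 1 replicate 4 (others 278.5 to 294.5), COL6A2 at 117.3 in LIN28A OE DU145 mutant 1 replicate 3 (67.5 to 74.9) and at 109.5 in mutant 2 replicate 4 (101.8 to 102.9). COL5A1 was at 1.186 in LIN28A OE DU145 wild-type replicate 1 (3.17 to 3.51), COL16A1 at 4.886 in LIN28A OE mutant 1 replicate 1 (5.62 to 5.71), COL9A3 at 2.613 in DU145 wild-type replicate 2 (1.19 to 1.41) and COL4A5 at 114.9 in IGROV1 wild-type replicate 1 (124.2 to 126).

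The mutant 1 effect differed between DU145 with and without LIN28A for COL12A1 (1.759, larger with LIN28A) and COL4A5 (1.935). The mean mutant effect differed between IGROV1 and DU145, as IGROV1 minus DU145 on the log2 scale, for COL5A3 (4.076), COL5A1 (3.941), COL23A1 (3.685), COL4A5 (2.856), COL28A1 (2.534), COL6A2 (1.801), COL6A1 (1.108) and COL10A1 (8.699), and downward for COL4A4 (-4.223), COL4A3 (-3.31), COL17A1 (-2.177), COL16A1 (-2.051), COL4A1 (-1.333), COL18A1 (-1.304), COL4A2 (-1.249), COL7A1 (-1.2) and COL15A1 (-5.672). These calls were lost for COL7A1 without any 1 of 19 of the 24 libraries (adjusted p = 0.0101 to 0.0444), COL23A1 without any 1 of 19 (0.0109 to 0.0411), COL4A3 without any 1 of 6 (0.0108 to 0.0205), COL15A1 without IGROV1 wild-type replicate 1, 2 or 3, COL10A1 without DU145 wild-type replicate 3, COL5A3 without DU145 wild-type replicate 2 (adjusted p = 0.0229) and COL28A1 without IGROV1 wild-type replicate 4 (0.0154). For COL10A1, COL15A1, COL23A1 and COL5A1 a group had 0 reads, so that the fitted size depends on the prior count, and for COL4A5 and COL5A1 the mean of the DU145 clones averages opposite effects.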

How the results depend on the processing

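With both clones pooled as 1 group, 6 collagen genes were called in DU145 (18 and 13 by clone) and 6 in LIN28A OE DU145 (20 and 12), since the clones differ. The sign then reversed against 1 clone for COL12A1 (0.228), COL1A2 (0.782), COL4A5 (1.632) and COL5A1 (1.715) in DU145 mutant 2, COL21A1 in DU145 mutant 1 (0.046) and LIN28A OE mutant 1 (0.315), COL4A5 (3.577) and COL5A1 (2.321) in LIN28A OE mutant 2 and COL1A1 in IGROV1 mutant 1 (0.182). At an adjusted p below 0.05 the LIN28A background difference called 4 (2) for mutant 1 and 1 (0) for mutant 2. Fitting only the 2 groups compared gave 2 (11) for LIN28A in wild type, and leaving out 1 library gave 7 to 15. Total counts gave 3 (5) and 3 (5) miRNAs for LIN28A in mutants 1 and 2, and leaving out 1 library gave 2 to 4 (4) in DU145 mutant 1. Of 197 collagen calls, 195 were kept by DESeq2, 195 with RLE factors, 192 without the filter, 189 with total counts and 193 with the replicate block, none reversed. The block ended 4 calls, COL4A4 (given above), COL1A2 in DU145 mutant 2 (adjusted p = 0.0103), and COL23A1 (0.0103) and COL7A1 (0.0126) between the lines. One fit of all 36 libraries ended 6 calls, and leaving out 1 library kept 1693 of 1864, none reversed. Genes under 1 CPM rest on few reads per library, and their changes are the least certain.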
